A study of Mus musculus with 7 samples.

Results

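The cells described here are the 954 cells that the study's authors named cDC2, for type 2 conventional dendritic cells, among 28644 cells sorted from mouse gliomas, 384 of which the authors named tumor or stromal cells. They were taken by that name alone from the authors' deposited cell annotation, which sets 23 cell types. They came from all 7 mice: 46, 200, 66 and 196 cells from KO mice 1 to 4 and 139, 207 and 100 cells from WT mice 1 to 3. They are set beside the 1864 cells named cDC1 and the 1569 cells named mo-DCs, for monocyte-derived dendritic cells.

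All mice carried intracranial CT-2A tumors, a mouse glioma line, and were 8 to 12 weeks old at engraftment. The alleles were Sall1CreERT2 (B6;129-Sall1<tm5(cre/ERT2)Ryn>), a tamoxifen-inducible Cre recombinase at the Sall1 locus, and Siglecefl/fl (B6.129P2-Siglece<tm1Bcgen>), a floxed gene for the inhibitory sialic acid receptor Siglec-E. The 4 KO mice were Cre-positive and the 3 WT mice Cre-negative. Both groups were floxed and both received tamoxifen, at 2.5 mg per injection from day 7 after engraftment, daily to day 21 and then on alternate days. Live cells positive for CD45, CD11b or both were sorted from the thawed suspension of each tumor-bearing hemisphere, and each mouse gave 1 droplet library read from the 5′ end of transcripts. Sall1 marks microglia among immune cells of the brain, so the driver does not aim at dendritic cells. In microglia, Siglece had 3 unique molecular identifiers (UMIs, 1 per captured transcript molecule) in all KO mice together and 46 in all WT mice. In cells named cDC2 it had 6 UMIs in KO and 9 in WT mice, and Sall1 had 0 and 1. For Siglece, mo-DCs had 667 UMIs in KO and 621 in WT mice. Per-mouse levels in microglia overlapped, at 0 to 19.6 CPM (UMIs of a gene per 1000000 UMIs of those cells) in KO and 18.6 to 45.9 CPM in WT mice, and where the floxed exons lie relative to the reads is not given in the sources used here.

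Cells named cDC2 had a median of 6439 UMIs, against 13792 in cDC1 and 9017 in mo-DCs. Their median ran from 4838 UMIs in KO mouse 2 to 9996 in WT mouse 3. Ribosomal protein genes took a median of 9.10% of UMIs in cells of WT mouse 1 and 12.5% to 13.9% in the other mice. Sex was not balanced: by Xist and Y-linked genes, KO mice 1 and 2 and WT mouse 3 were female. A total of 460 barcodes occurred in more than 1 library, and 34 cells named cDC2 carried one. The sources used here do not state how doublets were treated, and no caller was run. Levels below are CPM of the summed UMIs of all cells of a class in a mouse, with mean ± SD over the 7 mice unless stated.

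Conventional dendritic cells take up antigen in tissue and present it to T cells. Type 1 cells depend on the transcription factors IRF8 and BATF3 and take up dying cells, while type 2 cells depend more on IRF4 and carry lectins such as CD209a and CLEC10A. Either type can mature: it then gains the chemokine receptor CCR7, which guides cells to lymph nodes, raises costimulatory ligands and stops taking up antigen.

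Of 3 markers set for type 2 cells, only Ccr7 had its highest mean here. Ccr7 was measured at 4387, 2121, 3921 and 3828 CPM in KO mice 1 to 4 and 4932, 3708 and 4114 CPM in WT mice 1 to 3, the highest mean of all 23 annotated types, with KO mouse 2 well below the other mice. In cDC1 the range was 2.24 to 68.6 CPM and in mo-DCs 45.3 to 528 CPM, so neither overlapped the cells named cDC2. Cd209a, a C-type lectin of the DC-SIGN family, was seen in 1 of the 954 cells. Its level was 0 CPM in 6 mice and 0.679 CPM in KO mouse 4, while mo-DCs, with the highest mean of all types, had 11.2 to 128 CPM. Irf4 was measured at 15.0, 11.6, 6.96 and 8.83 CPM in KO mice 1 to 4 and 37.5, 23.4 and 12.6 CPM in WT mice 1 to 3, a sparse signal of 122 UMIs in 95 cells. Mo-DCs had 37.7 ± 12.7 CPM of Irf4 and cDC1 1.17 ± 0.481 CPM, and B cells had the highest mean of all types (160.0 CPM). In rank order, Irf4 in cells named cDC2 lay below mo-DCs, with overlapping mouse values, and above cDC1, without overlap.

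Against mo-DCs, more of the listed type 2 markers were lower than higher. By the size rule given below (a difference over 1 on the log2 scale in all 7 mice), 7 of 16 were lower, where 8.04% of all genes were, and 3 higher, where 5.65% were (Ccr7, Relb and Tnfrsf11a, the receptor for RANKL). Their median difference was -2.38. Against cDC1, 4 of 14 were higher (those 3 and the transcription factor Irf4), where 6.95% of all genes were, and 1 lower, Clec12a, where 7.63% were. The median there was -0.38. Ccr7 and Relb are also on the list of maturation genes described below and are counted there too. Of all 20 listed markers of type 2 cells, 3 had their highest mean of all types here: Ccr7, Relb (an NF-kappaB subunit) and Esam, the last at only 4.02 CPM. Clec10a, a lectin for galactose-type sugars, had 2.91 CPM against 111 in mo-DCs. Its relative Mgl2 had 8.47 against 261 CPM, and Sirpa, the receptor for CD47, 20.6 against 179 CPM. All 3 were far higher in mo-DCs, while against cDC1, at 10.1, 11.4 and 7.99 CPM, none passed the size rule. The cells are called here by the authors' name, in the sense of cells named cDC2, and no other type name is given to them.

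**Figure D1:**
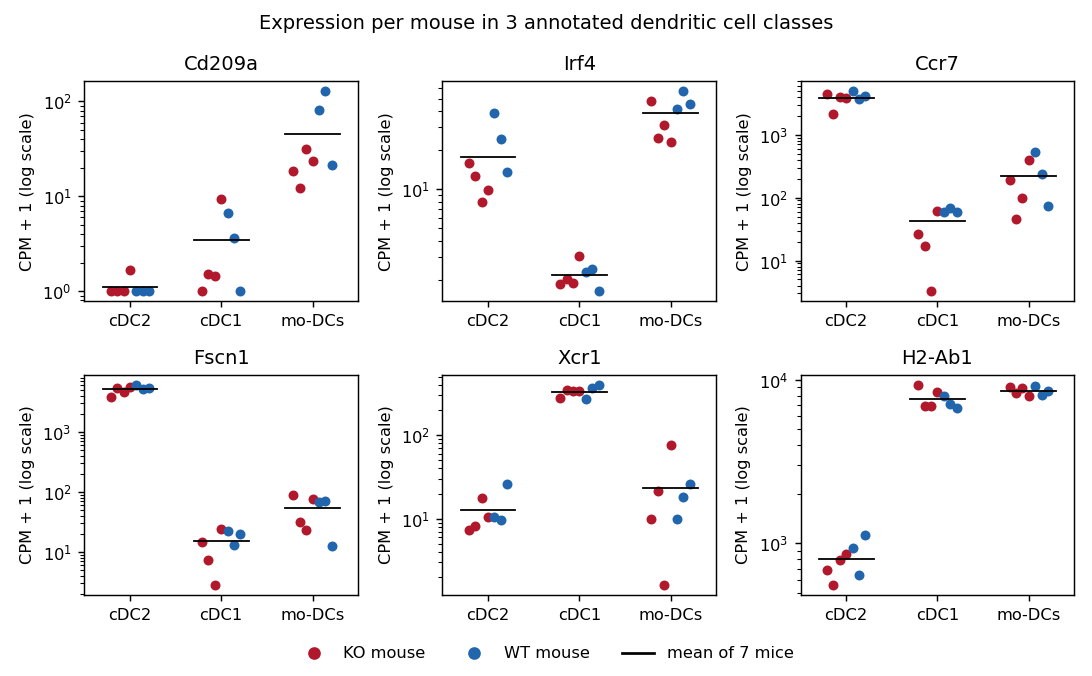
Level of 6 genes in each of 7 mice (points, KO red and WT blue) for cells named cDC2, cDC1 and mo-DCs. The y axes are CPM + 1 on log scales and lines mark means over mice. Ccr7 and Fscn1 are highest in cells named cDC2, Cd209a is at or near 0 there, Xcr1 is highest in cDC1, and H2-Ab1 is lowest in cells named cDC2.

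Nearly every cell in the class carried a maturation program. A core list of 10 maturation genes (Fscn1, Ccl22, Il4i1, Cacnb3, Socs2, Nudt17, Anxa3, Apol7c, Serpinb6b and Zmynd15) was read cell by cell, without Ccr7. A median of 8 were detected per cell, and 938 of 954 cells (98.3%) had at least 4. The same was true of 68 cDC1 cells (3.65%) and 86 mo-DCs (5.48%), although those cells had more UMIs. After thinning, as described for Ccr7 in the next paragraph, the shares were 96.0%, 0.820% and 2.31%. By mouse the share was 97.0% to 100% in cells named cDC2. The class thus held 76.7% of all 1223 cells in the data with at least 4 core genes.

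A Ccr7 UMI was found in 885 of the 954 cells, or 92.8% (exact 95% interval 90.9% to 94.3%, counting error only). The share ran from 84.0% in KO mouse 2, the library with the fewest UMIs per cell in this class, to 97.1% in WT mouse 1. Macrophages (P5), which should lack the gene, gave 2.57% at a median of 6437 UMIs, close to the median depth of the cells named cDC2. After each cell was thinned to 2858 UMIs, the shares were 90.9% in cells named cDC2 (856 of 954 cells deep enough), 3.83% in cDC1, 15.1% in mo-DCs and 1.03% in macrophages (P5).

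**Figure D2:**
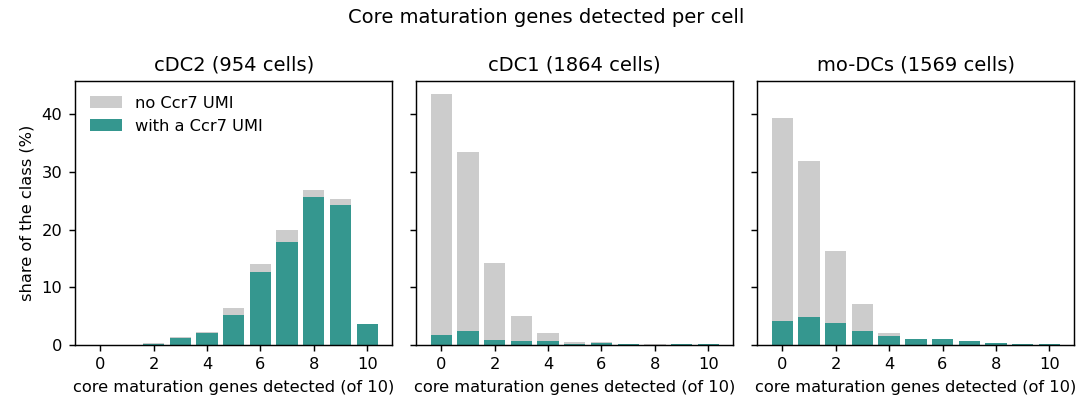
Share of each class (y axis, %) by the number of 10 core maturation genes detected in a cell (x axis), stacked by whether the cell had a Ccr7 UMI. Counting all cells of a class, cells named cDC2 peak at 8 genes and cDC1 and mo-DCs at 0, and most cells without a Ccr7 UMI in the first class also have 4 or more.

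Cells with both a Ccr7 UMI and at least 4 core genes numbered 1012 in all 23 types. Of these, 872 (86.2%) were named cDC2, 73 were named mo-DCs and 32 cDC1. Summed over mice, genes of their own class were uneven in the 73 mo-DCs. Lyz2 (lysozyme) had 1536 CPM, against 715 in other mo-DCs and 146 in cells named cDC2. Ccr2 had 26.5 CPM against 82.1 in other mo-DCs and 4.40 in cells named cDC2, and Cd209a 1.06 CPM against 52.2 and 0.138. The 32 cDC1 had less of several cDC1 genes than other cDC1 and more than cells named cDC2. Xcr1 was at 249, 343 and 11.7 CPM in these 3 groups, Naaa at 474, 993 and 11.3 CPM, and Tlr3 at 53.4, 161 and 1.65 CPM. Batf3 and Irf8, on the same list, were lower in the 32 cDC1 than in cells named cDC2. Batf3 was at 117 against 268 CPM and Irf8 at 973 against 1151 CPM. Genes of the MHC class II list were uneven. H2-Ab1 had 6715 CPM in the 73 mo-DCs and 7042 in the 32 cDC1, against 796 in cells named cDC2. Ifi30 was at 1396 CPM in the 73 mo-DCs and 1368 in cells named cDC2, and in the 32 cDC1 Ctss and Lgmn, lysosomal proteases, were below cells named cDC2 (571 against 644 CPM and 79.3 against 273 CPM). Whether these cells are doublets was not tested.

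Across genes, each class difference below is the log2 ratio of CPM + 1 within a mouse, summarised as the median of 7 mice. A gene counts as higher or lower where the ratio passed 1 on the log2 scale in the same direction in all 7 mice, among genes with at least 100 UMIs. The class names rest on expression, so these differences are descriptions without a test. Against cDC1, 740 of 10654 genes were higher (6.95%) and 813 lower (7.63%). Against mo-DCs, 573 of 10147 were higher (5.65%) and 816 lower (8.04%).

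Of 41 listed maturation and migration genes, 35 were higher than in cDC1 and 34 higher than in mo-DCs, and none was lower. Their median difference was 3.99 against cDC1 and 3.37 against mo-DCs, where the medians over all genes were -0.11 and -0.12. In 37 of the 41, the mean was the highest of all 23 types. Fscn1, whose protein fascin bundles actin in the dendrites of mature cells, was the gene with the highest difference from cDC1: 3831, 5371, 4563 and 5552 CPM in KO mice 1 to 4 and 6069, 5249 and 5303 CPM in WT mice 1 to 3. Its median log2 difference was 8.07 against cDC1 (mice 7.84 to 10.67) and 6.48 against mo-DCs, and 98.4% of cells had a UMI. Mreg (melanoregulin, an organelle transport factor) had 401 ± 56.0 CPM here and 1.20 CPM in cDC1. Cacnb3, a calcium channel beta subunit, had 797 ± 83.8 CPM, against 8.30 in cDC1 and 12.5 in mo-DCs, and no mouse value of either class reached those of cells named cDC2.

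Secreted signals were split. Of 22 listed cytokines and chemokines compared, 8 were higher and 2 lower than in cDC1, where 6.95% and 7.63% of all genes were. Against mo-DCs, 4 were higher and 6 lower (median -1.19), where 5.65% and 8.04% of all genes were. Il1b, for example, had 390 CPM here and 1837 in mo-DCs. The CCR4 ligand Ccl22 was at 1118 ± 353 CPM in cells named cDC2, against 42.4 in cDC1 and 60.4 in mo-DCs. The other CCR4 ligand, Ccl17, was uneven: WT mouse 3 had 1157 CPM and the other mice 198 to 498. Ccl5, a chemokine that attracts T cells, was at 5151 ± 1354 CPM, with a median difference of 6.18 from cDC1, and exhausted CD8+ T cells had a higher mean. Il12b, the p40 chain of IL-12 and IL-23, was detected in 63.9% of cells and measured at 791, 367, 679.5 and 936 CPM in KO mice 1 to 4 and 1164, 686 and 885 CPM in WT mice 1 to 3. In cDC1 it ranged over 8.98 to 115 CPM and in mo-DCs over 1.06 to 79.1 CPM, below every mouse value in cells named cDC2. Il12a, the p35 chain needed for IL-12, had 2 UMIs in all 954 cells. Il15 and its presenting receptor Il15ra had median differences of 2.92 and 4.13 from cDC1. Il4i1, a secreted amino acid oxidase that limits T cell growth, had 318 ± 78.6 CPM here and 39.0 in mo-DCs.

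The NF-kappaB components of the list were also high. Relb had 631 ± 61.1 CPM in cells named cDC2, with medians 3.99 above cDC1 and 2.98 above mo-DCs on the log2 scale. Nfkb2, which encodes the partner of RelB, differed by 2.92 and 2.17, and Traf1, an adaptor of TNF receptors, by 3.23 and 2.45. Birc3, an inhibitor of apoptosis in the same pathway, did not pass the size rule in either comparison (1.04 and 1.06).

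Promoters of leading maturation genes were read for a loose NF-kappaB-type motif, because these genes were high together with Relb and Nfkb2. RefSeq windows for build GRCm38.p6 cover 27 of the 41 listed genes, not Ccr7. The motif is GGG, any 5 bases, then CC, sought on both strands in the 250 bases before a gene's start. It was present for 19 of the 27 genes (70.4%) and for 48.7% of all 27025 genes with a window, so the letters alone are common. The windows of 3 core genes are shown 5′ to 3′ on the gene's strand, with capitals for matches on either strand, which overlap in Il4i1.
Fscn1, chr5:142960105-142960354, plus strand: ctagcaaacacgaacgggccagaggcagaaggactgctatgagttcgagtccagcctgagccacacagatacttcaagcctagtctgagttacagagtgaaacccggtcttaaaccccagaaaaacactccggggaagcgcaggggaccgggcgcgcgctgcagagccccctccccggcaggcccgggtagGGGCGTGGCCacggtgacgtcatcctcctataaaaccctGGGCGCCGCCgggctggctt
Ccl22, chr8:94745434-94745683, plus strand: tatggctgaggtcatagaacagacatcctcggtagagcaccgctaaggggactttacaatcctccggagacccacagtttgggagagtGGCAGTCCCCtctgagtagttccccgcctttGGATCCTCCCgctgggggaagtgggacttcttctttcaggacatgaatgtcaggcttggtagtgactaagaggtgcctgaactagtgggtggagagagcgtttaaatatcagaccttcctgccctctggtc
Il4i1, chr7:44836038-44836287, plus strand: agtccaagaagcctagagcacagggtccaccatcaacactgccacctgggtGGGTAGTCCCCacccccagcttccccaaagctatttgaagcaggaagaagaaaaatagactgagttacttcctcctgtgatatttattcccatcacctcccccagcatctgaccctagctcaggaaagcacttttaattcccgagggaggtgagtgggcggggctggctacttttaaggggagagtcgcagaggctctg
Each window held 2 matches. A match here is a description of letters and was not tied to binding.

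Costimulatory and checkpoint genes, ligands and receptors, were split. Of 19 compared, 7 were higher and 4 lower against either class. Over all genes, 6.95% were higher and 7.63% lower than in cDC1, and 5.65% and 8.04% against mo-DCs. The 7 are the same genes in both comparisons, and all are on the maturation list and counted there too. Cd40, through which helper T cells signal, had 301 ± 78.4 CPM, against 45.7 in cDC1 and 84.2 in mo-DCs. Cd80, a CD28 ligand, was 3.86 above cDC1 and 2.20 above mo-DCs, while its relative Cd86 did not pass the rule (0.82 and 0.67). Cd274 and Pdcd1lg2, the ligands of PD-1, differed from cDC1 by 3.64 and 3.65 and from mo-DCs by 1.63 and 2.12. Cd70 and Tnfsf4, ligands of CD27 and OX40, were higher than in either class: Cd70 had 84.7 CPM against 0.210 and 1.65, and Tnfsf4 39.8 against 0.0866 and 0.461. Havcr2 (TIM-3) and Lgals9 (galectin-9) were lower, at -3.51 and -2.50 against cDC1.

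Genes of type 1 cells were mostly lower than in cDC1. None of 13 listed cDC1 genes was higher than in cDC1 and 9 were lower, where 7.63% of all genes were. Against mo-DCs, however, 3 were higher (Batf3, Irf8 and Gcsam), where 5.65% of all genes were, and 4 lower, where 8.04% were. Batf3 was measured at 244, 298, 210.3 and 259 CPM in KO mice 1 to 4 and 228, 292 and 299 CPM in WT mice 1 to 3, above every mouse value in cDC1 (111 to 179 CPM) and in mo-DCs (20.6 to 61.0 CPM). Irf8 was at 1139.6 ± 230.1 CPM, overlapping cDC1 (1422 ± 124 CPM) and above every mouse value in mo-DCs (114 to 349.7 CPM). Irf8 and Batf3, both transcription factors, did not pass the size rule against cDC1. Xcr1, the receptor for XCL1, had 11.9 ± 6.80 CPM against 331 ± 45.1 in cDC1. Naaa, a lysosomal lipid amidase, had 10.1 ± 5.05 CPM against 936 ± 188, the lowest difference of all genes (-6.57). Tlr3, the receptor for double-stranded RNA, Wdfy4, needed for cross-presentation, and Itgae, the integrin CD103, differed by -5.99, -5.22 and -5.08. Of 10 listed genes shared by conventional dendritic cells, 1 was higher and 4 lower against either class. Their medians were -0.61 against cDC1 and -0.49 against mo-DCs. Over all genes, 6.95% were higher and 7.63% lower than in cDC1, and 5.65% and 8.04% against mo-DCs. From this list, Flt3, a growth factor receptor, and Zbtb46, a transcription factor, had their highest means of all types here (252 and 172 CPM). Flt3 was close to cDC1 (217 CPM). Itgax (CD11c) did not follow them, with 15.6 CPM against 153 in cDC1 and 257 in mo-DCs.

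MHC class II transcripts were low. Of 14 genes compared, 10 were lower than in cDC1, where 7.63% of all genes were, and 2 higher, where 6.95% were. Against mo-DCs, 11 were lower, where 8.04% of all genes were, and none higher. H2-Ab1, the I-A beta chain, was measured at 682, 554, 794 and 857 CPM in KO mice 1 to 4 and 932, 639 and 1129 CPM in WT mice 1 to 3, against 6724 to 9298 CPM in cDC1 and 7925 to 9138 CPM in mo-DCs. Cd74, the invariant chain, was present in every cell but at 6516 ± 1764 CPM, against 25272 ± 2246 in cDC1. Ciita, the transactivator of these genes, differed by -3.82 and -4.27 from cDC1 and mo-DCs, and H2-DMb1, a subunit of the peptide-loading factor, by -4.66 and -3.98. Marchf1, the ubiquitin ligase that removes surface MHC class II, was lower too (-5.02 from cDC1). Lgmn, a lysosomal protease, and H2-Eb2 were the 2 genes of the list higher than in cDC1. Of 16 MHC class I pathway genes, 2 were higher and 2 lower than in cDC1, where 6.95% and 7.63% of all genes were.

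Some pattern recognition genes were lower than in mo-DCs, and most proliferation genes were lower than in cDC1. Against mo-DCs, 11 of 26 pattern recognition genes were lower, where 8.04% of all genes were, none was higher and 15 did not pass. Among the 11 were Clec4n (dectin-2, -5.15) and Nlrp3, the inflammasome sensor (-4.53). Clec7a, the beta-glucan receptor dectin-1, did not pass against mo-DCs, with 266 CPM here, 268 in mo-DCs and 22.4 in cDC1. Of 20 proliferation genes, 15 were lower than in cDC1, where 7.63% of all genes were, and 2 lower than in mo-DCs, where 8.04% were. Of 17 monocyte and mo-DC genes, 10 of 16 compared were lower than in mo-DCs, Csf1r (the CSF-1 receptor) by -4.04 and Ccr2, which brings monocytes into tissue, by -4.68.

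Among genes with the highest differences, several were not on any list. Igfbp4, which binds insulin-like growth factors, differed from cDC1 by 7.55, Flrt3, an adhesion protein, by 6.72, and Ankrd33b by 6.96. Slc27a3, an acyl-CoA synthetase, and Npr1, a natriuretic peptide receptor, were among the top 12 in both comparisons (6.98 and 6.64 from cDC1, 7.00 and 6.64 from mo-DCs). Scin, an actin-severing protein, Bcl2l14, a BCL2 family member, and Adcy6, an adenylyl cyclase, were higher than in mo-DCs by 6.45, 5.93 and 5.97. On the low side, Ckb (creatine kinase B), Asb2 (a ubiquitin ligase subunit) and Ppt1 (a lysosomal thioesterase) differed from cDC1 by -6.15, -5.70 and -5.30. Ifitm6, Cfp (properdin, of the alternative complement pathway) and Ctnnd2 differed from mo-DCs by -6.99, -6.39 and -6.25.

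**Figure D3:**
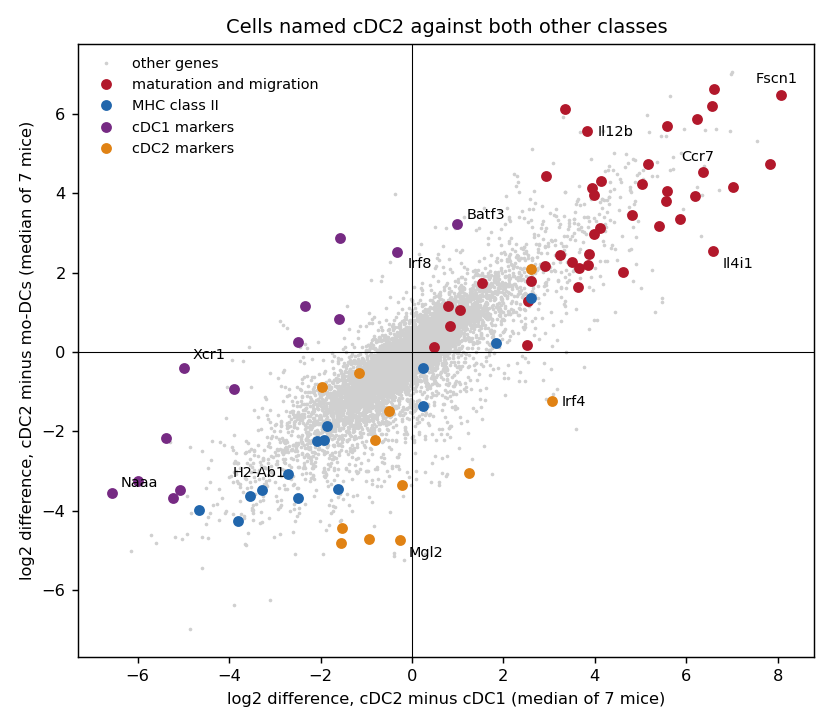
Each point is a gene, placed by its median log2 difference over 7 mice between cells named cDC2 and cDC1 (x axis) or mo-DCs (y axis). Maturation genes (red) lie toward the upper right, most MHC class II genes (blue) at the lower left, cDC1 markers (purple) to the left, and markers of type 2 cells other than maturation genes (orange) mostly below 0 on the y axis.

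Markers listed for other cell types were low but present, and not all of them are particular to those types. Summed CPM of 10 macrophage markers was 299 to 1015 in KO and 511 to 839 in WT mice, led by Apoe and C1q genes, against 36944 in macrophages (P5). The 10 T cell markers summed to 68.6 to 396 in KO and 22.9 to 116 in WT mice, with the high value in KO mouse 1, and the 7 B cell markers to 14.2 to 139 and 8.74 to 165. The 8 neutrophil markers summed to at most 4.45 and 7.77 CPM, with 4 of them at 0, and 4 of 5 mast cell and basophil markers were at 0. Of 9 tumor and stroma markers, 4 were at 0, including Sox2 and Olig2, and the sum was nearly all Vim, at 3475 CPM in WT mouse 3 and 451 to 1181 CPM in the other mice. The 7 markers of plasmacytoid dendritic cells (pDCs) summed to 223 to 1417 CPM in KO and 326 to 1361 CPM in WT mice. Bst2, which is also on the interferon-response list, led them with a mean of 693 CPM, and the sum in pDCs was 14188.5 CPM. The 8 NK cell markers summed to 136 to 228 and 108 to 232 CPM. Most of that was Klrk1, with a mean of 162 CPM here, 143 in cDC1 and 167 in mo-DCs. Only 1 of the 954 cells had 3 or more NK cell markers. The 6 markers of innate lymphoid cells summed to 210 to 528 and 163 to 423 CPM. They include Kit (84.1 CPM), which is also on the list of genes shared by conventional dendritic cells. The part of these other cells in the results was not tested.

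The 69 cells without a Ccr7 UMI carried most core maturation genes as well. They had a median of 7 core maturation genes, 66 of them (95.7%) had at least 4, and their median depth was 4253 UMIs against 6657 in cells with a Ccr7 UMI. Only KO mouse 2 and WT mouse 2 had at least 10 cells of each kind, so genes were compared within those 2 mice. By the size rule 56 of 3563 genes were higher (1.57%) and 14 lower (0.393%) in Ccr7-positive cells, with no test. In WT mouse 2 alone the counts were 249 and 56, and in KO mouse 2 alone 33 and 10. The negative side was only 32 and 13 shallow cells, and the 3 genes next after Ccr7 in rank passed the minimum of 100 UMIs through the positive cells, with 0 UMIs in the negative ones. These counts are therefore not read as a property of Ccr7 status. Igfbp4 was at 467 CPM in positive and 1622 CPM in negative cells. After thinning, which gave 4 mice with enough cells, 11 were higher and 1 lower. This split went by the UMIs left after thinning, so its negative cells included some that had a Ccr7 UMI before. KO mouse 4 and WT mouse 3 qualified only in this way, with 7 and 6 cells without a Ccr7 UMI before thinning. Fscn1 was then level (5397 and 5647 CPM, median difference -0.02). Among listed maturation genes, only Icosl passed besides Ccr7 (83.4 CPM in positive and 14.0 ± 16.4 in negative cells, median difference 3.78). None passed as lower. Icosl had 139 UMIs in all, few of them in negative cells, so it too met the minimum through the positive cells. It is therefore not read as a property of Ccr7 status. Il4i1, at 359 and 149 CPM (1.30), did not pass, and neither did Ccl5, which lay the other way (5239 and 7449 CPM, -0.51).

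The remaining comparisons ask whether the Siglece genotype moved with these cells. Mouse values are the replicates. The permutation p is the share of the 35 splits of the mice that gave a difference at least as large. The edgeR p tests a gene's genotype change against the variation between mice. Cells named cDC2 made up 3.26%, 3.77%, 1.39% and 3.35% of all cells in KO mice 1 to 4 and 4.74%, 4.65% and 2.53% in WT mice. The means were 2.94 ± 1.06% (SD, n = 4) and 3.97 ± 1.25% (SD, n = 3), the groups overlapped, and the exact two-sided permutation p was 0.229, adjusted over 5 shares 0.571. The direction turned with the denominator: of myeloid cells they were 6.95% to 11.3% in KO mice and 4.06% to 8.32% in WT mice, again overlapping, a KO minus WT difference of 2.83 percentage points (exact two-sided permutation p = 0.171). The denominators themselves differed. Myeloid cells were 662 of 1410, 2222 of 5305, 801 of 4744 and 1742 of 5856 cells in KO mice 1 to 4. In WT mice 1 to 3 they were 2439 of 2934, 2487 of 4449 and 2466 of 3946. As a share of cells named cDC1 or cDC2 they were 36.7 ± 4.90% in KO and 32.3 ± 7.44% in WT mice (exact permutation p = 0.343, adjusted 0.571). As a share of all dendritic cells they were 19.0 ± 3.63% and 18.6 ± 2.77% (exact permutation p = 0.943). A library holds sorted cells only, so these are shares of the sort and not numbers per tumor.

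The authors' cell cycle calls put 4.35%, 5.00%, 3.03% and 5.10% of the cells in S or G2M phase in KO mice 1 to 4 and 5.76%, 5.31% and 8.00% in WT mice 1 to 3. All KO values lay below all WT values, with means of 4.37 ± 0.954% (n = 4) and 6.36 ± 1.44% (n = 3), but each rests on 2 to 11 cells. The exact permutation p was 0.0286, the smallest that 35 splits allow, and 0.143 after adjustment over the 5 shares, so it did not pass. With Mki67 or Top2a UMIs in thinned cells in place of the calls, the difference of KO minus WT was -3.88 percentage points with overlapping groups. The thinned Ccr7 share was 89.7 ± 4.85% in KO (n = 4) and 92.5 ± 4.66% in WT mice (n = 3; exact permutation p = 0.543, adjusted 0.679).

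No gene passed the genotype test in cells named cDC2. Sums per mouse were tested with edgeR's quasi-likelihood test, and 0 of 7853 genes had a Benjamini-Hochberg adjusted p under 0.05 (0%). At an unadjusted p under 0.05 there were 759 (9.67%), of which 415 were lower (5.28%) and 344 higher (4.38%) in KO mice. DESeq2 called 13 genes, adjusting over fewer genes after its own further filter on mean counts. A fit without the filter on low counts called 113. The calls also turned on single mice: without KO mouse 4 there were 4, without WT mouse 2 there were 3, without WT mouse 3 there were 2 and without WT mouse 1 there was 1. Values below are given for genes named by rank of p among those whose groups did not overlap, and none is a called change. Non-overlap itself was common, with KO above WT in 7.45% and below in 2.9% of genes.

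The genes named on the low side in KO mice included a receptor and a ligand of the TNF family. Tnfrsf4, which encodes OX40, was measured at 124, 81.9, 97.5 and 101 CPM in KO mice 1 to 4 and 271, 228 and 147 CPM in WT mice 1 to 3, with no overlap and a log2 change of -1.20 ± 0.21 (SE, edgeR adjusted p = 0.195). Over the alternatives the adjusted p ran from 6.37e-07 without the low-count filter to 0.663, and it passed in 5 of 18, among them the fit without WT mouse 3 (0.0151). Tnfsf9, the ligand of 4-1BB, was at 96.3, 147, 118 and 109 CPM in KO mice 1 to 4 and 182, 195 and 256 CPM in WT mice 1 to 3, with a log2 change of -0.93 ± 0.18 and the same adjusted p by edgeR. Cdkn1a, which encodes the cell cycle inhibitor p21, had 439, 269, 356 and 348 CPM in KO mice 1 to 4 and 624, 505 and 613 CPM in WT mice 1 to 3 (log2 change -0.82, edgeR adjusted p = 0.319). Dynll1, a dynein light chain, Zfand6, a zinc finger protein, and Stip1, a heat shock co-chaperone, had log2 values of -1.02, -0.87 and -1.01. Dynll1 was lower without overlap in KO mice in cDC1 (173 to 210 against 258 to 325 CPM) and in mo-DCs (190 to 261 against 314 to 396 CPM) as well, and Zfand6 and Palld in mo-DCs. Adm (adrenomedullin) and Zfp872 were sparse, with 55 and 75 UMIs in all, and Ier3 and Palld, an early response and an actin-binding gene, had -0.93 and -0.81.

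The 10 genes named on the high side in KO mice were on none of the gene lists used here. Acsf3, a mitochondrial malonyl-CoA synthetase, was at 53.5, 46.3, 58.5 and 27.2 CPM in KO mice 1 to 4 and 7.29, 14.7 and 19.4 CPM in WT mice 1 to 3 (log2 change 1.57 ± 0.33, edgeR adjusted p = 0.288). Rbl2, a retinoblastoma relative, had 0.90, Prmt1, an arginine methyltransferase, 0.91, Klf13, a transcription factor, 0.74, and Cirbp, a cold-inducible RNA-binding protein, 0.99. Cirbp was also higher without overlap in KO mice in the other 2 classes. It had 70.5 to 155 against 39.1 to 48.0 CPM in cDC1 and 80.7 to 176 against 40.8 to 70.9 CPM in mo-DCs. Klf13 was higher without overlap in cDC1. Arhgap25 was tied there, with 25.3 CPM in both the lowest KO and the highest WT mouse. The share of all genes without overlap in cDC1 and mo-DCs is not given here. These values, and those of Dynll1, Zfand6 and Palld in these classes, are therefore descriptions only. The other 5 of the 10 genes (Clasrp, Prodh, Mrm1, Arhgap25 and Ddx56) had log2 changes between 1.06 and 2.02 in cells named cDC2.

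Of the marker genes, Irf4 had a log2 change of -1.34 ± 0.37 (edgeR adjusted p = 0.348), and its mouse values overlapped, since WT mouse 3 lay below KO mouse 1. Ccr7 had -0.35 ± 0.23 (edgeR adjusted p = 0.651), with KO mouse 2 lowest and the other KO mice within the WT range. Cd209a and Siglece were below the filter.

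**Figure D4:**
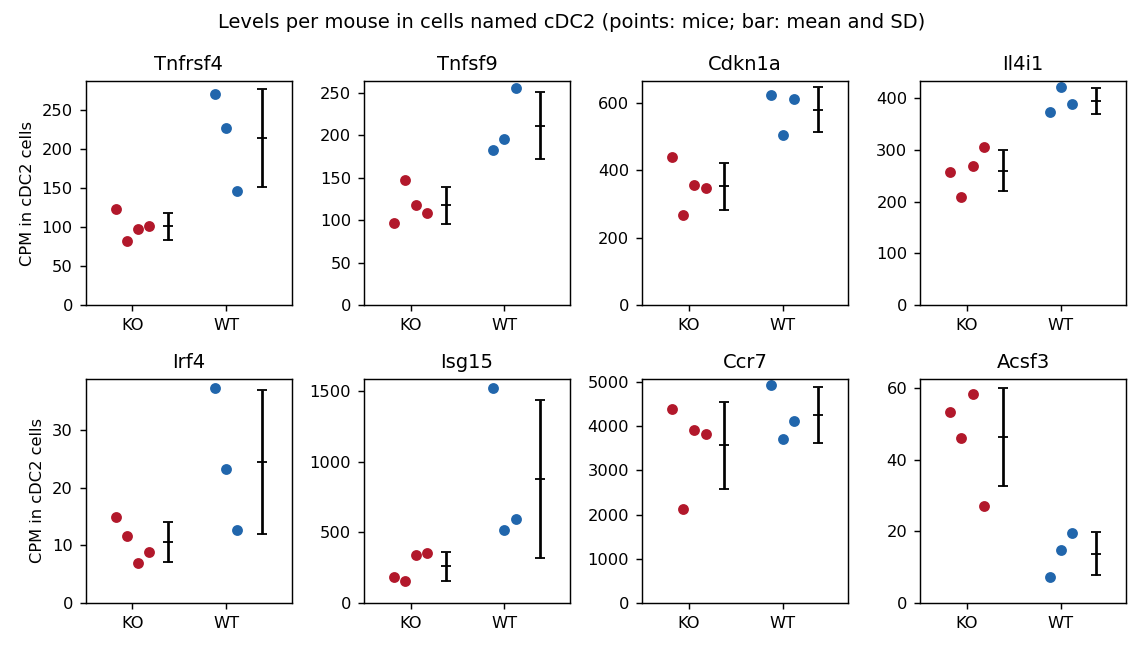
CPM of 8 genes in cells named cDC2, with 1 point per mouse (4 KO, 3 WT) and the mean and SD of each group beside the points. KO and WT mice do not overlap for Tnfrsf4, Tnfsf9, Cdkn1a, Il4i1, Isg15 or Acsf3 and overlap for Irf4 and Ccr7. No gene passed the adjusted test.

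Interferon-response genes leaned lower in KO mice as a list. Of 37 tested, 36 had a negative log2 change and 17 were lower at an unadjusted p under 0.05, where 5.28% of all genes were. None was higher. The list's median change was -0.96, against 0.01 over all genes. Isg15, a ubiquitin-like modifier, was at 186, 157, 336 and 354 CPM in KO mice 1 to 4 and 1518, 514 and 594 CPM in WT mice 1 to 3, without overlap but with WT mouse 1 far above all others (log2 change -1.83 ± 0.49, edgeR adjusted p = 0.401). Usp18, which removes that modifier, and Rsad2 (viperin) had -1.64 and -1.27, and the exception in sign was Bst2 (tetherin), at 0.27. Without WT mouse 1 the list's median was -0.51, with 33 of 37 negative and 11 lower at an unadjusted p under 0.05. Without WT mouse 2 the median was -1.24, with 28 of 38 lower. The same list had all 42 genes negative in cDC1 and in mo-DCs, with medians of -0.58 and -0.98. All 3 classes come from the same libraries, so these are not independent.

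Maturation genes, and most other lists, also had more negative than positive changes. Of 41 maturation genes tested, 36 were negative, 16 were lower at an unadjusted p under 0.05 and none higher, with a median of -0.35. In 9 of them every KO value was below every WT value, which was so for 2.9% of all genes. Il4i1 was at 257, 210.0, 269 and 306 CPM in KO mice 1 to 4 and 374, 423 and 389 CPM in WT mice 1 to 3 (log2 change -0.69 ± 0.17, edgeR adjusted p = 0.319). Cd274 had -0.49, Pdcd1lg2 -0.68, Nfkb2 -0.44 and Marcksl1, a regulator of actin, -0.91, all without overlap. Fscn1 (-0.29) and Relb (-0.21) overlapped. In cDC1 the same list had a median of -0.17 and in mo-DCs -0.31.

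Over all genes tested, 51.5% of changes were positive, and 5.28% were lower at an unadjusted p under 0.05. The list of 27 cytokines and chemokines, which shares 4 genes with the maturation list, had a median of -0.37. Of its 19 genes tested, 14 were negative and 4 were lower at an unadjusted p under 0.05: Tnf, Ccl9, Ccl22 and Ccl17, of which only Ccl9, with 67 UMIs in all, did not overlap between genotypes. Of 18 costimulation and checkpoint genes, 14 were negative, 6 were lower at an unadjusted p under 0.05 and the median was -0.34, with 10 of the 20 listed genes on the maturation list as well. Of 14 MHC class II genes, 12 were negative, with 2 lower at that level, Ifi30, a lysosomal reductase (-0.62), and Ciita (-0.97), and a median of -0.29. Without WT mouse 1, or without KO mouse 4, 5 MHC class II genes were at that level, and without WT mouse 3 the median was -0.11. Of 14 dissociation stress genes, 11 were negative (median -0.19), as were 13 of 16 MHC class I genes (-0.15), 10 of 11 type 2 markers (-0.21) and 6 of 9 genes shared by conventional dendritic cells (-0.16). Proliferation genes had a median of -0.04, and 0 of 12 were at an unadjusted p under 0.05 by edgeR. T cell markers went the other way. In cells named cDC2, 3 of 4 tested were positive (median 1.57), none at an unadjusted p under 0.05 by edgeR. All 10 were positive in cDC1 and in mo-DCs, with medians of 1.81 and 1.48. Their summed CPM in cDC1 was 72.7 to 107 in KO and 8.77 to 36.0 in WT mice, without overlap. In mo-DCs and in cells named cDC2 the sums overlapped. The ribosomal share also differed between mice (WT mouse 1, above). The part of T cell RNA and of the ribosomal share in these values was not tested. Scaled by library size alone, the median of all genes moved to 0.11, and the interferon, maturation, costimulation and MHC class II medians were -0.86, -0.25, -0.24 and -0.19.

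**Figure D5:**
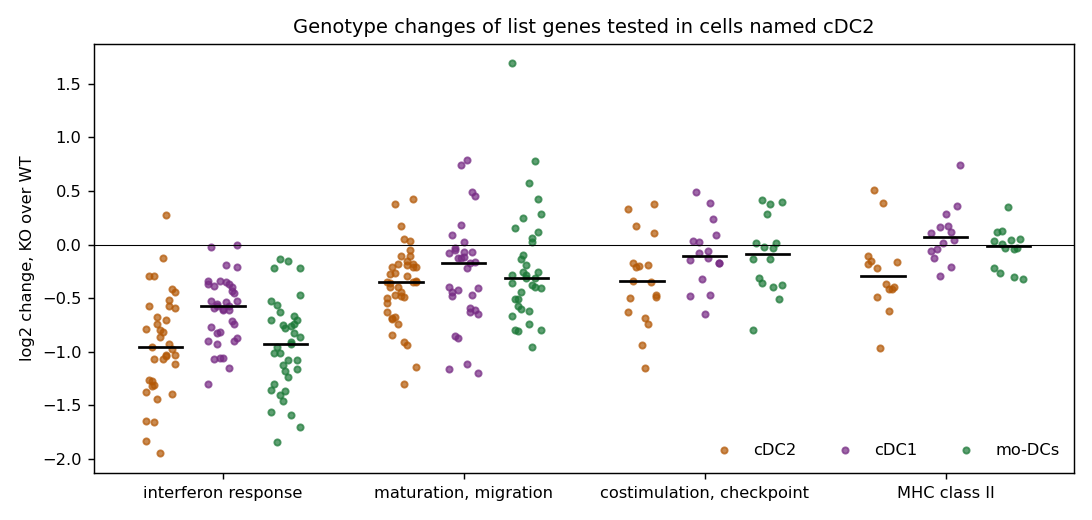
Log2 change of KO over WT (y axis) for genes of 4 lists that were tested in cells named cDC2, shown in that class and in cDC1 and mo-DCs, with a black line at each median. In cells named cDC2, 36 of 37 interferon-response and 36 of 41 maturation genes lie below 0.

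The genotype change itself was compared between classes with an interaction term in a fit that blocks by mouse. Between cells named cDC2 and cDC1, 0 of 9902 genes passed by edgeR (630, or 6.36%, at an unadjusted p under 0.05, and 33 passed without the low-count filter). Between cells named cDC2 and mo-DCs, 3 of 10060 passed (0.0298%), and 558 (5.55%) were at an unadjusted p under 0.05. For Cpne2, a copine that binds membranes in response to calcium, the difference between the 2 log2 changes was -1.26 (SE 0.19, edgeR adjusted p = 0.0113), lower in cells named cDC2. Its levels there were 111, 144, 135 and 116 CPM in KO mice 1 to 4 and 162, 226 and 186 CPM in WT mice 1 to 3, without overlap. In mo-DCs they were 54.5, 87.5, 77.4 and 60.2 CPM in KO mice and 43.9, 55.4 and 40.8 CPM in WT mice, which overlapped (means 69.9 and 46.7 CPM). Over 13 alternatives the difference ran from -1.36 to -1.18 and the adjusted p from 7.07e-05 to 0.130. It passed in 8 of them, and not with equal cell numbers (0.0514) or without KO mouse 2 (0.114), KO mouse 3 (0.0618), KO mouse 4 (0.0708) or WT mouse 2 (0.13). The other 2 genes rested on few libraries. Sct (secretin) had 1, 3 and 2 UMIs in cells named cDC2 of KO mice 1 to 3 and 73 in KO mouse 4, and 22, 9 and 6 in WT mice 1 to 3. The means there were 14.3 CPM over KO mice and 11.6 CPM over WT mice. In mo-DCs it had 1, 0, 0 and 15 UMIs in KO mice 1 to 4 and 153, 44 and 5 in WT mice 1 to 3, with means of 1.52 and 25.4 CPM. The difference was 4.25 (SE 0.58, edgeR adjusted p = 0.00312). Over 13 alternatives its adjusted p ran from 6.2e-11 to 0.597, and its call was lost with equal cell numbers (0.406) or without KO mouse 4 (0.597), WT mouse 1 (0.0736) or WT mouse 2 (0.102). Igkv13-84, an immunoglobulin segment named here after its values were seen, had 5909 UMIs in mo-DCs of WT mouse 2 and 0 in mo-DCs of the other WT mice. Without KO mouse 4, or without WT mouse 2, no gene passed this comparison by edgeR (603 and 555 at an unadjusted p under 0.05), and without WT mouse 3 there were 5.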

How the data were processed

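Sorted cells of 7 mice (4 KO, 3 WT) were profiled by droplet RNA sequencing. The authors deposited a matrix of estimated counts per gene and cell with an annotation of 28644 cells; 7.50% of nonzero values were not whole. FastQC 0.11.5, STARsolo, STAR 2.7.10a and build mm10 are named in the submitters' processing notes. The deposited annotation also gave detected gene counts and the percent of mitochondrial and ribosomal UMIs per cell, computed by the authors, and it supplied the cell names and cell cycle phases.

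Estimated counts were summed per mouse and class, rounded, and tested with edgeR 4.0.16 (quasi-likelihood, robust, TMM, filterByExpr; R 4.3.3) with Benjamini-Hochberg adjustment at 0.05. DESeq2 1.42.0 was an alternative. Sums held 467500 to 1497210 UMIs per mouse in cells named cDC2. The edgeR script was tested on simulated data for this comparison, on 7903 genes: it recovered 97.8% of 4-fold and 43.5% of 2-fold changes, with 4 false calls. For the interaction with cDC1, on 9915 genes, it recovered 78.0% and 11.1%, with 6 false calls, and the interaction with mo-DCs was not simulated. Every simulated gene had the same fixed dispersion, so these rates do not hold for genes that vary more between mice. In the data, Mrm1 at a log2 change of 2.02 and Adm at -2.87 did not pass (edgeR adjusted p = 0.319 and 0.195). The lack of calls therefore does not exclude changes of that size. Differences between classes used CPM plus a pseudocount of 1. Shares were tested with two-sided exact permutation over 35 splits, and intervals are exact (Clopper-Pearson) at 95%. Thinning drew each cell to 2858 UMIs without replacement.

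Named genes were the markers, list members, the 12 genes with the highest median differences in each direction between classes, genes past the adjusted threshold, and up to 10 genes in each direction by p among those whose genotypes did not overlap. Unnamed predicted, ribosomal, mitochondrial and receptor segment genes were only counted. Members, lists and tests were chosen with earlier results of these data known. Alternatives covered normalization, filters, whole values only, equal cell numbers, G1 cells, a sex term, replicate numbers and leaving out each mouse. Python 3.11.15, numpy 2.4.6, scipy 1.17.1 and pandas 2.3.3 were used. Promoter windows came from RefSeq tables.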

Additional observations from a re-analysis of the deposited data

Results flagged for a closer look

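The difference in genotype change between cells named cDC2 and mo-DCs passed the interaction test for 3 genes by edgeR's quasi-likelihood test with Benjamini-Hochberg adjustment. For Cpne2 the difference was -1.26 on the log2 scale. For Sct it was 4.25: means in cells named cDC2 were 14.3 CPM over KO mice and 11.6 CPM over WT mice, with 73 of the KO UMIs in KO mouse 4, and means in mo-DCs were 1.52 and 25.4 CPM, with 153 UMIs in WT mouse 1. For Igkv13-84 it was 7.74, where mo-DCs of WT mouse 2 held 5909 UMIs. Dixon's criterion was applied to the 4 KO mice only, in 27 groups. These were the 5 shares and the genes named for the genotype test in cells named cDC2. No KO mouse stood apart there, where chance marks about 1 in 20. Sct, Cpne2, Igkv13-84, Isg15 and all WT groups were not checked.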

How the results depend on the processing

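Genes called between genotypes in cells named cDC2 numbered 0 in the reported fit, 13 with DESeq2, 113 without the low-count filter and 16 with equal cell numbers, and 0 to 4 when 1 mouse was left out. The labels do not say whether replicate numbers pair the mice. Correlations of deviations were 0.118, 0.0457 and 0.0267 for same-numbered mice and -0.129 to 0.0917 for other pairs of a KO and a WT mouse. Pairing is thus not known, and with the replicate block 33 genes passed. Interaction calls without the filter were 33 against cDC1 and 26 against mo-DCs, 5 against mo-DCs with a mean of at least 10 UMIs, and 0 to 5 there without 1 mouse. The KO minus WT share of all cells (-1.03 percentage points) turned to 2.83 as a share of myeloid cells. That of dendritic cells (0.391) ran from -1.26 without KO mouse 4 to 1.89 without 1 mouse, below 0 also without WT mouse 3 (-0.849), and was -1.26 with the replicate block. The cycling difference (-1.99) was -2.51 to -1.16 without 1 mouse, where no split of 6 mice can reach p under 0.05, -2.23 with the block and -3.88 from Mki67 or Top2a. A log2 size over 2 left 305 and 214 genes higher and lower than in cDC1 and 214 and 236 against mo-DCs. A pseudocount of 10 left 417 and 437 lower, and 36 higher by Ccr7 status. Thinned cells gave 11 and 1, and single mice 33 to 249 higher and 10 to 56 lower. Except in these and in 37 gene-level alternatives that newly passed and 9 that no longer passed, calls kept their side. Fits without Ccr7-positive cells named cDC2 were not run, for lack of cells. Library-size scaling, cells with a Ccr7 UMI only, and the other class without Ccr7-positive cells were chosen after seeing the data. Low-count genes limit what 46 cells in KO mouse 1 can show. The cause of these changes was not tested.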
